A study of Mus musculus with 24 samples.

Results

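The Slc25 carriers are the mitochondrial solute carriers, proteins that sit mostly in the inner mitochondrial membrane and exchange metabolites, nucleotides, cofactors and ions between the cytosol and the matrix. Members were taken by a rule on names, as every gene whose annotated symbol is Slc25a followed by a number. The family itself was picked with earlier results of these data known. On the bead array that rule took 57 of 25697 probes, which belong to 39 of 16593 annotated genes. Of these 39, 24 had a probe that passed the filter on dim probes and are called measured, so counts below are over those 24. The array samples come from livers of mice in which the genes for the nuclear receptors Rev-erb alpha and Rev-erb beta (Nr1d1 and Nr1d2) were targeted together, and from livers of control mice, collected every 4 h through a day and a night.

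The double-knockout animals (DKO) carry the strain label Reverbalpha/beta Alb Cre+ and the controls (WT) the label Reverbalpha/beta Alb Cre-. Albumin-driven Cre acts in hepatocytes, and the labels do not say whether other cells of the liver were targeted. All animals were male, 20 weeks old and on the c57Bl6/J background. Each genotype was sampled at zeitgeber times (ZT, hours after lights on) 0, 4, 8, 12, 16 and 20. Each of the 12 combinations was hybridised on 2 arrays, which the labels call technical replicates, giving 24 arrays. How many livers went into an RNA sample is not stated by the labels, so the 2 arrays were averaged and each combination counted as 1 value. The p-values below therefore rest on the scatter of the times around a 24 h cosine fitted for each genotype. This scatter is not the whole spread over times, and it may in part be technical.

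Mitochondrial carriers differ in what they move. Some carry fuel and its products, such as acylcarnitines for fat oxidation, dicarboxylates and citrate; others carry amino acids for the urea cycle and the malate-aspartate shuttle, ATP, ADP and phosphate, or cofactors such as coenzyme A, glutathione and S-adenosylmethionine. The Rev-erb receptors are repressors of transcription in the circadian clock that recruit corepressors to their target genes, and in liver they are known for their part in the daily rhythm of lipid and glucose metabolism.

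Arrays had 34.8% to 40.2% of their probes detected, and 7272 genes were tested after a filter on dim probes. The hepatocyte markers Ttr, Apoa1, Cyp2e1 and Cps1 were detected on all arrays, while the single probe of Alb was detected on 1 DKO and 8 WT arrays, Tat on 0 arrays. The probes of the targeted genes were not lower in DKO: Nr1d1 averaged 9.89 in DKO and 8.30 in WT on the log2 scale, and Nr1d2 averaged 9.93 in DKO and 9.41 in WT. The labels do not say where these probes lie relative to the deleted part, so they check nothing about the genotypes. The DKO sample at ZT0 stood apart in markers of other cells: the summed neutrophil marker intensity was 27229 there, at most 8330 at the other DKO times, and 1306 to 5317 in WT, with the defining markers Ngp and Camp detected on 0 arrays. Most of the sum at ZT0 came from Lcn2, at 14.39 on the log2 scale, beside 12.16 for S100a8, 9.46 for S100a9 and 8.76 for Ltf. Ltf was detected on only 4 DKO arrays and 1 WT array. The summed Kupffer cell marker intensity ran from 6144 to 15720 in DKO, highest at ZT0, and from 4306 to 7490 in WT. The summed sinusoidal endothelium marker intensity was 28079 in DKO at ZT0, the highest of 16980 to 28080 in DKO, with 18060 to 20120 in WT. In daily mean 0 of 4 measured neutrophil and 0 of 4 Kupffer cell markers were called by limma, while 1 of 4 endothelial markers, Lyve1, was higher in DKO by 0.86 (adjusted p = 0.0488). Sox9, the 1 measured cholangiocyte marker, was higher in DKO by 0.99 (adjusted p = 0.0213), with Krt7 and Krt19 detected on 0 arrays. The Sox9 probe was detected on 10 DKO arrays and 6 WT arrays, so part of its WT values lay near background. Of 5 measured hepatocyte markers 1 was called, Alb, lower by -0.96 (adjusted p = 0.0134, limma). Alb passed the filter on dim probes only through WT arrays, so its call is no measure of hepatocytes. The list's median was -0.004. Ttr, Apoa1 and Cyp2e1 lay between 16.09 and 16.14 in every group, a nearly constant level, so this median does not measure hepatocyte content either. The part of these cells in the results was not tested. In whole liver, fewer cells of a type and less RNA per cell cannot be told apart. By slide, the DKO arrays of ZT0 to ZT12 filled slide 1, those of ZT16 and ZT20 shared slide 2 with the WT arrays of ZT0 and ZT4, and the remaining WT arrays filled slide 3. Slide and genotype overlap only in slide 2, and no time was sampled for both genotypes on 1 slide. Differences given below as within slide 2 set DKO at ZT16 and ZT20 against WT at ZT0 and ZT4, so they also hold a difference in time.

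The promoters of the 5 carriers on which the results turn are shown for reference, as the 250 bases before each start site from RefSeq (GRCm38.p6), 5′ to 3′ on the gene's strand. Capitals mark AGGTCA, the core of the sites bound by Rev-erb and related receptors, on either strand (it reads TGACCT on the other), or CACGTG, the E-box bound by the clock's activators. Slc25a20 lies at chr9:108661886-108662135 (plus strand), Slc25a10 at chr11:120491587-120491836 (plus), Slc25a13 at chr6:6217174-6217423 (minus), Slc25a30 at chr14:75787038-75787287 (minus) and Slc25a47 at chr12:108850879-108851128 (plus).
Slc25a20: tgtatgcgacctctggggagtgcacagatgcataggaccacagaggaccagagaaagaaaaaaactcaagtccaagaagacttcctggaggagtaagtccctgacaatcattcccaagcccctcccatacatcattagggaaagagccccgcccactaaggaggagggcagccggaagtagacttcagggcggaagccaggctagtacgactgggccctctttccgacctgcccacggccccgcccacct
Slc25a10: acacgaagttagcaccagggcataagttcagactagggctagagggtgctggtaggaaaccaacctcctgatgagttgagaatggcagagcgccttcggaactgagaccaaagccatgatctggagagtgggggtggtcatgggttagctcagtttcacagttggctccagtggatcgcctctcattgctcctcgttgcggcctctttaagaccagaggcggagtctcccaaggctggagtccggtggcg
Slc25a13: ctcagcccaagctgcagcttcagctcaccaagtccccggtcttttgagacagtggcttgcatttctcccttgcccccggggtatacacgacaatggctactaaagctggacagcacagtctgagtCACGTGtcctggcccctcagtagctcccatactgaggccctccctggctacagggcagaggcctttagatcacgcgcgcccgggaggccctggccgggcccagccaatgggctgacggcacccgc
Slc25a30: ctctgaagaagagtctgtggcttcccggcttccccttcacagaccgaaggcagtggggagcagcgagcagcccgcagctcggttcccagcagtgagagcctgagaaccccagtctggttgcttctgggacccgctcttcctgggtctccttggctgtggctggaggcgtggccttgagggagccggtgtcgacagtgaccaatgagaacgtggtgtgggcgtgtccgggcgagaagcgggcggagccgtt
Slc25a47: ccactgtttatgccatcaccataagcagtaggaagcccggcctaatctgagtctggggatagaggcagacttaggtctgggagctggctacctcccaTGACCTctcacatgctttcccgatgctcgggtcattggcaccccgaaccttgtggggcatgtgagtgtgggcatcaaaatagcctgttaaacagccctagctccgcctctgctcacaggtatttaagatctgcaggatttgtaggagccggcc
Among 32851 promoters of this length, 14.0% hold AGGTCA, 2.23% hold the longer TAGGTCA (which contains AGGTCA) and 6.02% hold CACGTG. Of the 24 measured carriers, 21 matched a promoter table entry: AGGTCA was found for Slc25a39, Slc25a45 and Slc25a47, TAGGTCA for 0, and CACGTG for Slc25a1, Slc25a13, Slc25a14, Slc25a15 and Slc25a33. These matches describe the letters only.

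Averaged over the day, 3 carriers were lower in DKO than in WT and 0 were higher: the carnitine/acylcarnitine carrier Slc25a20, the dicarboxylate carrier Slc25a10 and the aspartate/glutamate carrier citrin, Slc25a13. They were 1.65-fold, 1.62-fold and 1.60-fold lower in DKO. The 3 called are 12.5% of the carriers; limma called 9.31% of all genes at an adjusted p under 0.05, 4.99% lower and 4.32% higher. At an unadjusted p under 0.05, 6 carriers were lower and 1 was higher, 7 of 24, and 28.6% of all genes passed, 14.2% lower and 14.5% higher. The median difference of the 24 carriers was -0.06 on the log2 scale, beside 0.02 for all genes, with a range of -0.72 to 0.53, and 15 of the carriers (62.5%) were below 0, as were 47% of all genes. Under median scaling the medians were -0.28 for the carriers and -0.20 for all genes, and the calls over all genes were 1996 lower and 186 higher, beside 363 lower and 314 higher here.

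**Figure D1:**
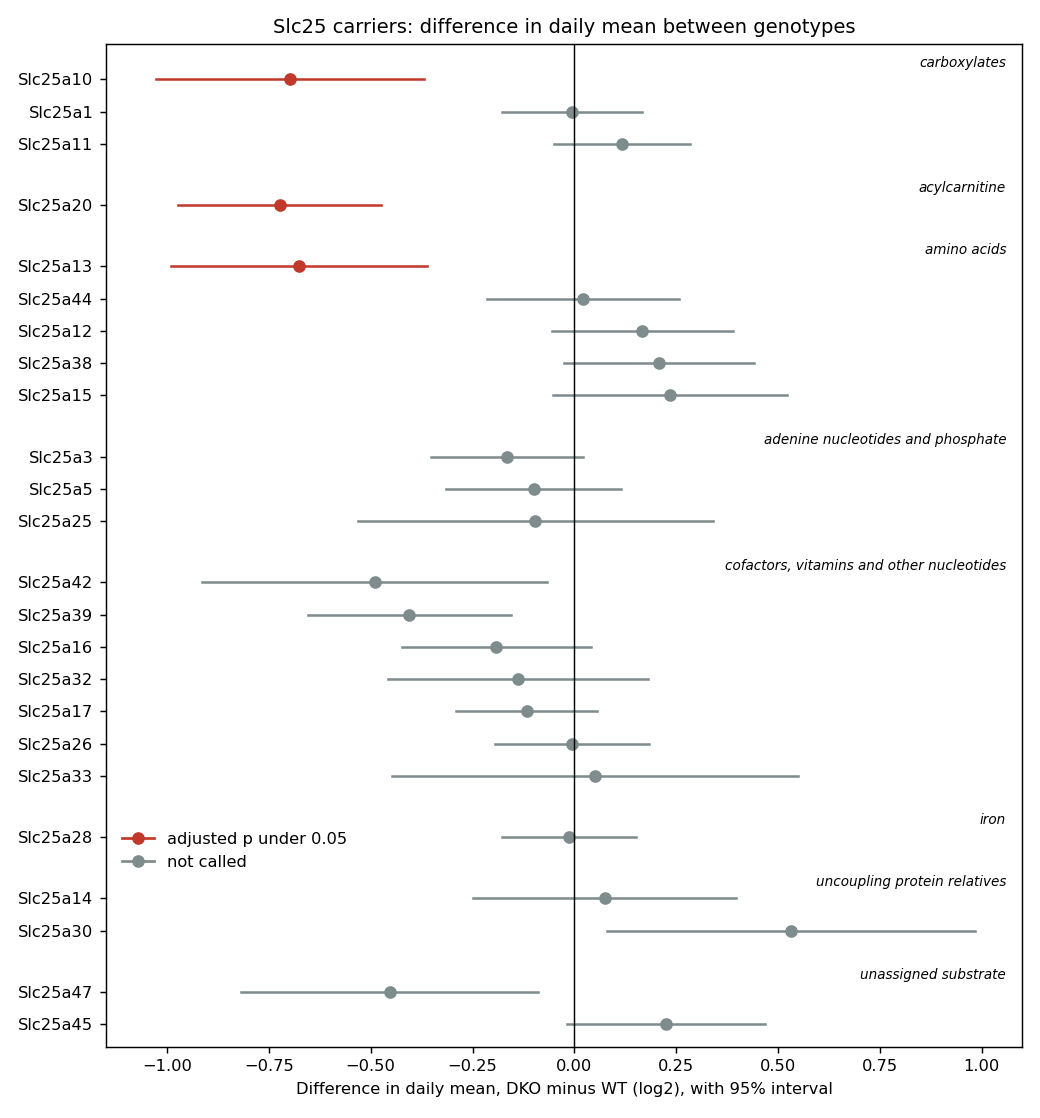
Difference in daily mean between DKO and WT (log2, DKO minus WT) for the 24 measured carriers, grouped by what they carry; points are estimates, bars are 95% intervals, and red marks an adjusted p under 0.05. Slc25a10, Slc25a20 and Slc25a13 have intervals wholly below 0, between -1.03 and -0.36. The intervals are not adjusted for the number of genes. Those of Slc25a39, Slc25a42 and Slc25a47 also lie wholly below 0, and that of Slc25a30 wholly above 0, without a call.

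Slc25a20 moves acylcarnitines into the matrix in exchange for free carnitine, the step between the carnitine palmitoyltransferases in fat oxidation. Its log2 levels in DKO at ZT0, 4, 8, 12, 16 and 20 were 12.80, 12.56, 12.87, 12.63, 12.93 and 12.44, and in WT 13.64, 13.09, 13.01, 13.50, 13.62 and 13.70. Every DKO value lay below every WT value. That held for 1 carrier and for 2.1% of all genes, and the opposite order for 0 carriers and 2.12% of all genes. The means were 12.7 ± 0.191 in DKO and 13.4 ± 0.301 in WT (SD over 6 times), a difference of -0.72 ± 0.11 (SE; 95% interval -0.97 to -0.47; adjusted p = 0.00695, limma). Within slide 2, where DKO at ZT16 and ZT20 sits beside WT at ZT0 and ZT4, the difference was -0.68. A second Slc25a20 probe was lower too, by -0.65 ± 0.13 (adjusted p = 0.0182 over all probes). Without the DKO ZT0 sample it was -0.78 (adjusted p = 0.00942), and the call was lost without ZT12 (-0.63, adjusted p = 0.0579).

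Slc25a10 exchanges malate and succinate for phosphate. Its levels in DKO were 10.88, 11.20, 11.40, 11.06, 11.55 and 11.11, and in WT 11.79, 11.51, 11.97, 11.65, 12.06 and 12.42, in the same order of times. DKO was lower at 6 of 6 times, with the highest DKO value above the lowest WT value. The difference was -0.70 ± 0.15 (SE; 95% interval -1.03 to -0.37; adjusted p = 0.0213), and -0.32 within slide 2. Without the DKO ZT0 sample it was -0.65 (adjusted p = 0.0474). The call was lost with slide as a random block (-0.62, adjusted p = 0.123) and when any of ZT0, ZT8, ZT12, ZT16 or ZT20 was left out (adjusted p 0.0595 to 0.102).

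Slc25a13 moves aspartate out of the matrix for glutamate, a step of the malate-aspartate shuttle and the supply of aspartate to the urea cycle. Its levels in DKO were 7.84, 8.05, 8.16, 8.32, 8.64 and 8.80, and in WT 8.69, 8.77, 9.10, 8.93, 9.01 and 9.37. DKO was lower at 6 of 6 times, and the DKO value of ZT20 lay within the WT range. The difference was -0.68 ± 0.14 (SE; 95% interval -0.99 to -0.36; adjusted p = 0.0201), with a second probe at -0.34 (adjusted p = 0.252). Within slide 2, however, it was -0.01: the DKO samples averaged 8.72 there and the WT samples 8.73. For this carrier slide and genotype cannot be told apart. Without the DKO ZT0 sample the difference was -0.57 (adjusted p = 0.0338), and the call was lost with slide as a random block (adjusted p = 0.116) and without ZT8, ZT12 or ZT16 (adjusted p 0.083 to 0.0964).

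With slide as a fixed block, none of these calls was kept by limma: the difference was -0.89 for Slc25a20 (adjusted p = 0.446), 0.36 for Slc25a10 (adjusted p = 0.642) and 0.28 for Slc25a13 (adjusted p = 0.738). These estimates also rest on the cosine fitted for each genotype. They are not the plain slide 2 differences, which were -0.68 for Slc25a20, -0.32 for Slc25a10 and -0.01 for Slc25a13. The fixed-block fit called 0 of all genes, with 793 at an unadjusted p under 0.05.

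**Figure D2:**
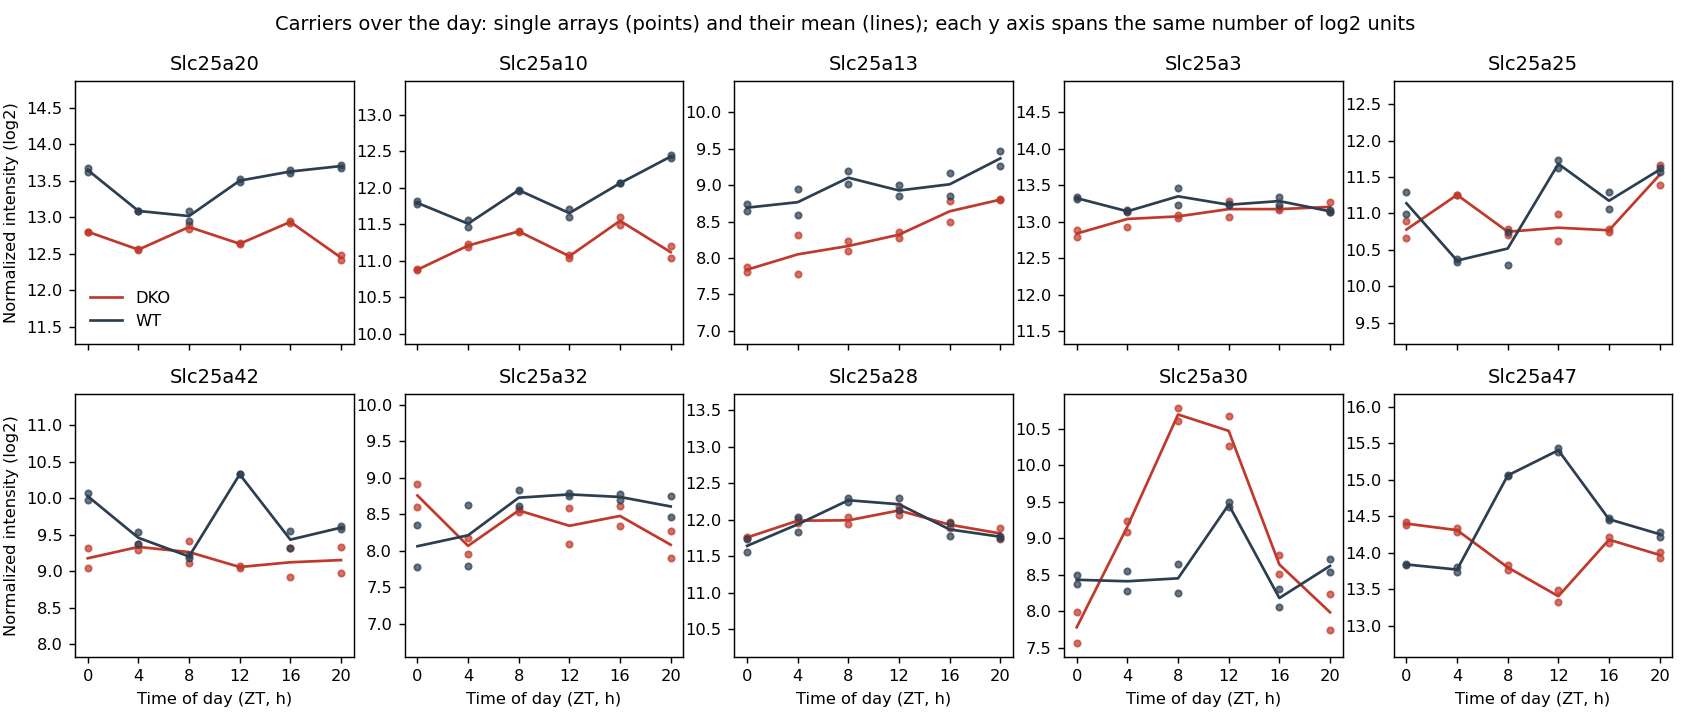
Log2 normalised intensity of the 10 carriers named by the fixed rule at each zeitgeber time; lines join the averages of 2 arrays, and small points are the arrays. DKO lies below WT at every time for Slc25a20, Slc25a10 and Slc25a13, and Slc25a30 spans 7.78 to 10.70 in DKO against 8.18 to 9.46 in WT.

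Of the other carboxylate carriers, the citrate carrier Slc25a1, which exports citrate for fatty acid synthesis, and the oxoglutarate carrier Slc25a11 did not pass the test. Slc25a1 was 12.30 in DKO and 12.30 in WT on average, a difference of -0.01 ± 0.08 (95% interval -0.18 to 0.17). Slc25a11 differed by 0.12 ± 0.07, and its 3 probes did not go the same way (0.12, -0.18 and -0.05).

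The cofactor carriers held 6 of 7 members below 0, beside 47% of all genes, and 0 passed the test, beside 9.31% of all genes. The lowest was Slc25a42, a coenzyme A carrier. Its levels in DKO were 9.18, 9.33, 9.27, 9.06, 9.12 and 9.16, and in WT 10.03, 9.46, 9.20, 10.33, 9.43 and 9.60. The DKO levels were nearly flat, and WT was high at ZT0 and ZT12. The difference was -0.49 ± 0.19 (adjusted p = 0.128), and it was -0.85 at ZT0, -1.27 at ZT12 and -0.61 within slide 2. Slc25a39, which imports glutathione, was lower in DKO at 6 of 6 times with a difference of -0.41 ± 0.11 that narrowly missed the threshold (adjusted p = 0.051). It passed under 8 of 21 alternative settings. At ZT0 it was -0.92. The remaining members, Slc25a16, Slc25a17 (the peroxisomal carrier), Slc25a26 (S-adenosylmethionine), Slc25a32 (folate and FAD) and Slc25a33 (pyrimidine nucleotides), lay between -0.19 and 0.05. Slc25a32 was 8.76, 8.07, 8.56, 8.35, 8.48 and 8.08 in DKO and 8.06, 8.21, 8.73, 8.77, 8.74 and 8.61 in WT, so that DKO was above WT at ZT0 and below it at the other times. Its 2 arrays of a group lay up to 0.83 apart.

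Among the amino acid carriers, 4 of 5 lay above 0, and the exception was Slc25a13, while 47% of all genes lay below 0. Of those 4, 0 passed the test, beside 4.32% of all genes called higher. Slc25a15, the ornithine/citrulline exchanger of the urea cycle, was 13.05 to 13.81 in DKO and 12.99 to 13.35 in WT, a difference of 0.24 ± 0.13; it passed without the DKO ZT0 sample and with the arrays taken as separate samples. Slc25a12, the aspartate/glutamate carrier that is related to citrin, differed by 0.17 ± 0.10, Slc25a38 (glycine) by 0.21 ± 0.10 and Slc25a44 (branched-chain amino acids) by 0.02 ± 0.11. For Slc25a38 the 3 probes gave 0.21, 0.02 and -0.30.

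The phosphate and adenine nucleotide carriers were 3 of 3 below 0, beside 47% of all genes, with 0 passing the test, beside 9.31% of all genes. Slc25a3, the phosphate carrier of oxidative phosphorylation, was 12.84, 13.04, 13.07, 13.17, 13.18 and 13.21 in DKO and 13.33, 13.15, 13.35, 13.24, 13.29 and 13.15 in WT. Its groups overlap, the difference was -0.17 ± 0.08, and a second probe went the other way, at 0.10. Slc25a5, an ADP/ATP translocase, differed by -0.10 ± 0.10. Slc25a25, a calcium-regulated ATP-Mg/phosphate carrier, was 10.78, 11.26, 10.75, 10.81, 10.77 and 11.53 in DKO and 11.14, 10.35, 10.52, 11.68, 11.17 and 11.60 in WT. The genotypes crossed over the day, and the daily means differed by -0.10 ± 0.19.

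The iron carrier Slc25a28, mitoferrin 2, was 11.75, 11.98, 11.99, 12.13, 11.93 and 11.81 in DKO and 11.64, 11.93, 12.26, 12.21, 11.86 and 11.76 in WT. Both genotypes were low at ZT0 and high in the middle of the cycle, and the daily means differed by -0.01 ± 0.07.

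Of the 24 carriers, Slc25a30 spanned the widest range over the 6 times in DKO and Slc25a47 in WT. Slc25a30, related to the uncoupling proteins, was 7.78, 9.16, 10.70, 10.47, 8.64 and 7.99 in DKO and 8.43, 8.41, 8.45, 9.46, 8.18 and 8.62 in WT. In DKO its highest level, at ZT8, was 7.57-fold its lowest, at ZT0, while in WT the highest, at ZT12, was 2.43-fold the lowest. The 4 DKO times of slide 1 alone spanned 2.92 log2. Its difference in daily mean was 0.53 ± 0.20 (adjusted p = 0.124, limma). The slide 2 difference was -0.10, which sets unlike times against each other and leaves out the high DKO levels of ZT8 and ZT12.

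Slc25a47 is a carrier found mainly in liver. Its levels were 14.40, 14.31, 13.80, 13.41, 14.18 and 13.97 in DKO and 13.84, 13.77, 15.06, 15.40, 14.46 and 14.26 in WT. DKO was above WT at ZT0 and ZT4, with differences of 0.56 and 0.55, and below it at ZT8 and ZT12, with differences of -1.26 and -2.0. The difference in daily mean was -0.45 ± 0.16 (adjusted p = 0.107, limma). The slide 2 difference was 0.27, which sets unlike times against each other and leaves out the high WT levels of ZT8 and ZT12. Slc25a14, another relative of the uncoupling proteins, and Slc25a45 differed by 0.07 ± 0.14 and 0.23 ± 0.11.

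For the daily rhythm, a 24 h cosine was fitted for each genotype. In WT 0 carriers were called rhythmic, beside 13 of all genes (0.179%), and in DKO 0 were, beside 4 (0.055%). At an unadjusted p under 0.05, 4 of 24 carriers were rhythmic in WT (16.7%, with 13.8% of all genes) and 4 of 24 in DKO (16.7%, with 7.4%). The difference in rhythm between genotypes was called by limma for 0 genes (0%); at an unadjusted p under 0.05 it was met by 4 carriers, Slc25a30, Slc25a47, Slc25a17 and Slc25a44, or 16.7%, with 6.19% of all genes.

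The amplitude of Slc25a30 was 1.57 in DKO and 0.28 in WT (log2, SE 0.20), with fitted peaks at ZT 9.57 in DKO and 11.7 in WT. The p of its DKO rhythm was 8.16e-05 (adjusted p = 0.11), and that of the difference 0.00334 (adjusted p = 0.505). A DKO amplitude larger than that of Slc25a30 was found in 0.0688% of all genes. Over the alternatives the adjusted p of the DKO rhythm ran from 1.05e-05, with the arrays as separate samples, to 0.498, without ZT8. It was 0.0444 with an intensity trend and robust variances, 0.254 with slide as a fixed block, 0.29 without the DKO ZT0 sample and 0.356 without replicate 1.

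The amplitude of Slc25a47 was 0.38 in DKO and 0.77 in WT, with fitted peaks at ZT 23.9 in DKO and 11.8 in WT. The p of its WT rhythm was 0.00318 (adjusted p = 0.142) and of the difference 0.00219 (adjusted p = 0.453). With slide as a fixed block the amplitudes were 0.42 in DKO and 0.52 in WT, the p of the WT rhythm was 0.0751 and that of the difference 0.0785. Within slides, the 4 DKO times of slide 1 spanned 0.99 and the 4 WT times of slide 3 spanned 1.14.

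Slc25a25 had an amplitude of 0.22 in DKO and 0.57 in WT, and its DKO minus WT difference was 0.90 at ZT4 and -0.87 at ZT12. Slc25a28 had 0.16 in DKO and 0.31 in WT, and Slc25a17 had 0.35 in DKO and 0.10 in WT. Over the 24 carriers the median amplitude was 0.17 in DKO and 0.14 in WT (all genes 0.16 in DKO and 0.19 in WT). The amplitude was lower in DKO than in WT for 11 carriers and higher for 13; over all genes it was lower in DKO for 58.8%.

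**Figure D3:**
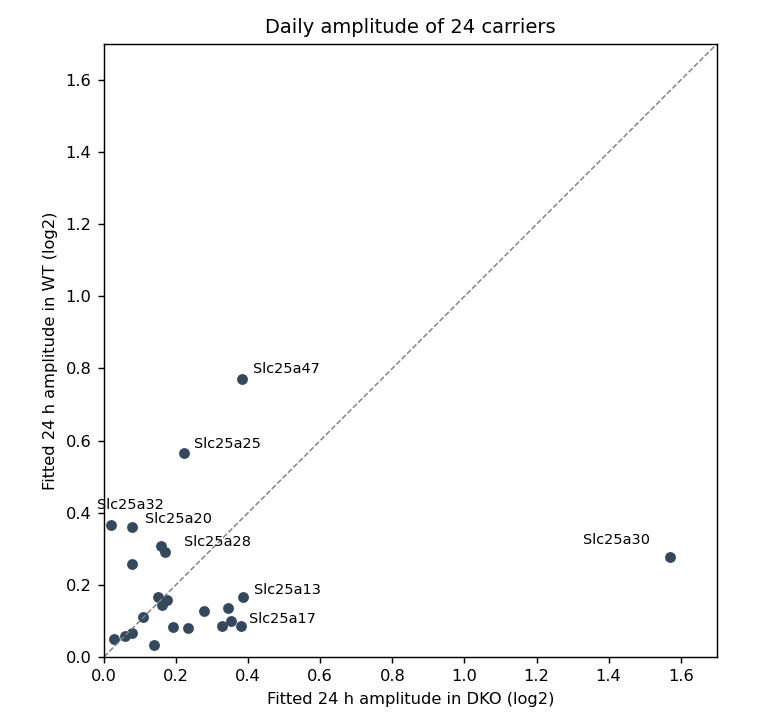
Fitted 24 h amplitude of each of the 24 carriers, DKO on the x axis and WT on the y axis (log2); the dashed line marks equal amplitudes. Slc25a30 lies alone at 1.57 in DKO and 0.28 in WT, and Slc25a47 lies above the line at 0.38 in DKO and 0.77 in WT.

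At single times, with 1 RNA sample per genotype and time and no test, a carrier was counted as apart when both arrays of one genotype lay above both of the other by at least 0.58 log2 (1.5-fold). At ZT0, 5 carriers were apart lower in DKO (Slc25a10, Slc25a13, Slc25a20, Slc25a39 and Slc25a42) and 0 higher, while 6.13% of all genes were lower and 8.1% higher. At ZT4 only Slc25a25 was apart, higher in DKO (1.93% of all genes lower, 1.75% higher). At ZT8, 2 were lower (Slc25a13, Slc25a47) and 2 higher (Slc25a30, Slc25a33), with 4.57% of all genes lower and 4.84% higher. At ZT12, 4 were lower (Slc25a20, Slc25a25, Slc25a42 and Slc25a47) and 2 higher (Slc25a30 and Slc25a44), with 5.73% lower and 5.09% higher. At ZT16 only Slc25a20 was apart, lower (2.94% lower, 3.34% higher), and at ZT20 Slc25a10 and Slc25a20 were apart, lower (4.1% lower, 3.42% higher). The neutrophil marker sum, mostly Lcn2, and the Kupffer cell marker sum given above were highest in the DKO sample at ZT0, and their part in the count at that time was not tested.

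**Figure D4:**
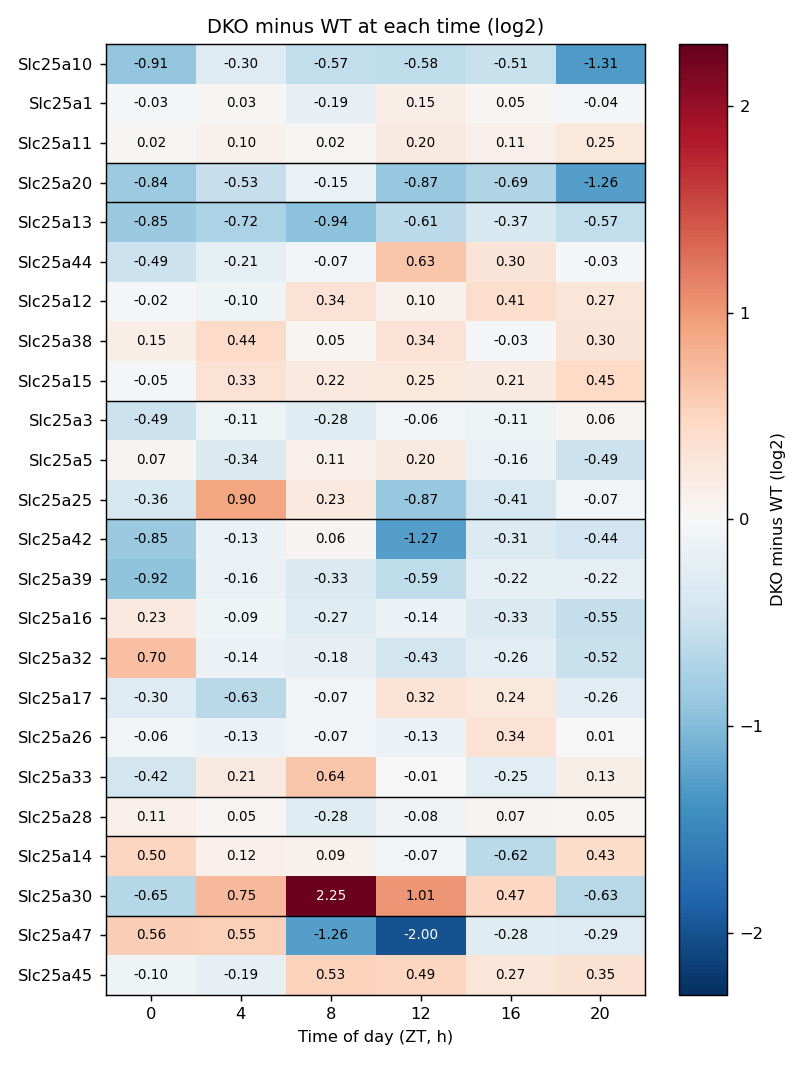
DKO minus WT (log2) of each carrier at each zeitgeber time, as a colour scale. Slc25a20, Slc25a10 and Slc25a13 are below 0 at 6 of 6 times, and Slc25a30 and Slc25a47 change sign over the day, with 2.25 at ZT8 for Slc25a30 and -2.0 at ZT12 for Slc25a47.

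The 15 carriers without a measured probe were Slc25a18, Slc25a21, Slc25a22, Slc25a27, Slc25a29, Slc25a31, Slc25a35, Slc25a40, Slc25a41, Slc25a46 and Slc25a53, detected on 0 arrays, and Slc25a24, Slc25a34, Slc25a36 and Slc25a48, detected on 1 to 6 arrays.

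Genes that work with these carriers were read from lists that were chosen with earlier results of these data known. In the same fit 4.99% of all genes were lower and 4.32% higher. In the carnitine shuttle, with Slc25a20 as its carrier, 4 of 6 genes were measured and 2 were lower in DKO: Slc22a5, the plasma membrane carnitine transporter, by -1.17 ± 0.14 (adjusted p = 0.00235; -0.63 within slide 2), and Crat, carnitine acetyltransferase, by -0.87 ± 0.10 (adjusted p = 0.00204; -0.59 within slide 2). Cpt2 and Cpt1b, which detach and attach the acyl group, differed by -0.31 and -0.35 (adjusted p = 0.0802 and 0.0965, limma). Cpt1b was dim, at 6.77 in DKO and 7.12 in WT on average. Cpt1a and Crot were not measured, so Cpt1b does not stand for Cpt1a here. In the citrate list, 2 of 7 measured genes were lower, Idh2, the NADP-linked isocitrate dehydrogenase of the matrix, by -0.55 (adjusted p = 0.0164; -0.10 within slide 2) and Pck1, the cytosolic enzyme of gluconeogenesis, by -0.57 (adjusted p = 0.019; 0.32 within slide 2). In the urea cycle and malate-aspartate list 1 of 11 was lower, Mdh2, the malate dehydrogenase of the matrix, by -0.52 (adjusted p = 0.0213; 0.29 within slide 2). Abcb10, an inner membrane transporter of heme biosynthesis, was 1 of 8 lower in the list of other membrane transport, by -0.51 ± 0.09 (adjusted p = 0.0122; -0.38 within slide 2), and Glrx5, an iron-sulfur assembly protein, was 1 of 6 in the iron and heme list, by -0.55 (adjusted p = 0.0168; -0.12 within slide 2). In the protein import list 0 of 6 passed the test, and of the carrier relatives Mtch1 and Mtch2, which have no Slc25 symbol, 0 of 2. The list medians were -0.61 for the carnitine shuttle, -0.19 for the citrate list, -0.18 for protein import, -0.03 for heme and iron, -0.02 for the urea cycle and malate-aspartate list, 0.02 for other membrane transport and 0.15 for the carrier relatives, beside 0.02 for all genes. In these lists 0 genes were called higher in DKO by limma.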

How the data were processed

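The authors deposited, per the file headers, a bead-summary intensity, a detection p-value, a bead count and a bead standard error (a signal) per probe and array, from GenomeStudio per the submitters' processing notes (version not given in the sources used here), and a table of processed intensities on a linear scale whose normalisation is not stated. Here the raw intensity was background corrected by normexp from the detection p-values (offset 16), quantile normalised and put on the log2 scale with limma 3.58.1 (R 4.3.3); a probe was kept if its detection p was under 0.01 on each array of 2 or more groups and the probe of highest mean stood for its gene. The 2 arrays of a group were averaged, and limma fitted a daily mean and a 24 h cosine per genotype over the 12 averages. p-values were Benjamini-Hochberg adjusted over all 7272 genes, with calls at 0.05. The members and lists were chosen with earlier results of these data known. The named carriers are those called, the largest change in each role group and the 3 largest amplitudes in each genotype. Alternatives covered background correction, scaling, filters, slide as a block, arrays as separate samples, and left-out times and arrays. The bead standard errors were not used in the fits. The fit was checked on simulated data.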

Additional observations from a re-analysis of the deposited data

Results flagged for a closer look

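Slc25a30 in WT at ZT12 stood apart from the other WT times: its level was 9.46, and the next highest WT value was 8.62, so that the gap took 0.656 of the whole range of 6 values. Of 48 groups of 6 tested (24 carriers in 2 genotypes) this was 1, and chance flags about 1 in 20 groups.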

How the results depend on the processing

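Of 220 values of named carriers under the alternatives, 204 kept their direction, and 49 of 63 tests of the 3 called carriers stayed past the threshold. With slide as a fixed block 0 carriers were lower (limma; 4 had an unadjusted p under 0.05), Slc25a10 turned to 0.36, Slc25a13 to 0.28, Slc25a25 to 0.25, Slc25a28 to 0.11 and Slc25a47 to 0.15, and the carriers' median was 0.06; with slide as a random block 1 carrier was lower, Slc25a20. The cause was not tested. Slide and genotype overlap in slide 2 only, where the times of the genotypes differ too. The carriers' median was 0.022 there and, with no test, Slc25a25 was at 0.40, Slc25a28 at 0.084, Slc25a30 at -0.10, Slc25a32 at 0.15 and Slc25a47 at 0.27. Under median scaling, which moved the median of all genes from 0.02 to -0.20, 9 carriers were lower, and the median was -0.28. Without ZT8 1 carrier was lower and without ZT12 0 (limma; 6 had an unadjusted p under 0.05). The median was -0.006 with no filter, -0.10 with probes detected on all arrays, -0.013 without ZT0, -0.025 without ZT20 and -0.004 without the DKO ZT0 sample, where 1 carrier, Slc25a15, was higher. Leaving out ZT0, ZT12 or the DKO ZT0 sample turned Slc25a25 to 0.105, 0.05 and 0.039; leaving out ZT8 and ZT20 turned Slc25a28 to 0.027 and 0.013, and ZT20 turned Slc25a32 to 0.008. Summed over the 6 times, carriers were apart lower in DKO 14 times and higher 5 times, with the shares of all genes at each time given above. A gap of 1 log2 gave 5 lower and 1 higher, and the authors' values 10 lower and 3 higher. Median scaling, which moved the median of all genes to -0.20, gave 25 lower and 2 higher. The shares of all genes apart under these alternatives are not given here. Without replicate 1 or 2, 3 to 4 carriers were lower with medians of -0.08 to -0.05. The replicate numbers name technical arrays only, and the replicate block took the arrays as separate samples. Under it 8 carriers were lower and 5 higher, with 35.9% of all genes called in daily mean (1217 lower, 1393 higher). It called 5 carriers rhythmic in WT, 4 in DKO and 5 different in rhythm. The shares of all genes in these rhythm tests are not given here, so the rhythm counts are not read as a result about the carriers. Replicate 1 deviations of 2 groups correlated at -0.053 to 0.054 over 66 pairs, so the numbers do not pair the arrays. With an intensity trend and robust variances 1 carrier, Slc25a30, was rhythmic in DKO. Over all genes the daily-mean calls, 677 as reported, were 2182 under median scaling, 2610 with the replicate block, 123 with slide as a random block, 0 with it fixed (793 at an unadjusted p under 0.05), 1019 with each kept probe tested, and 366, 142, 149, 170 and 197 without ZT0, ZT8, ZT12, ZT16 and ZT20 (541 without ZT4). The 3 slides, the single RNA sample per genotype and time, and probes near background limit the precision.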
